A study of Mus musculus with 9 samples.

Results

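Transcripts of 10 genes of the transforming growth factor beta (TGF-beta) and bone morphogenetic protein (BMP) pathway were followed in the central cornea of 3 inbred mouse strains. They comprise 5 ligands (Tgfb1, Tgfb2, Tgfb3, Bmp4 and Bmp7), the secreted antagonist Fst and its relative Fstl1, the receptors Tgfbr1 and Tgfbr2, and the signal transducer Smad3. The genes were picked by name out of 18193 genes on the array, and every probe set whose single gene symbol was one of them was taken, 24 of 45037 in all. Each gene was read from its brightest probe set by mean intensity over the 9 arrays, and its other probe sets served as a check.

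The strains were SJL/J (SJL), labelled as having a thick cornea, C57BLKS/J (KS), labelled as having a thin one, and C57Bl/6J (B6), whose labels give no thickness. All animals were untreated adult males aged 4 months on 1 diet, and a 2-mm punch from each eye was taken, so that each array held the pooled 2 punches of 1 mouse, with 3 mice in each strain. Each strain is a single inbred genotype, so a thick or thin cornea cannot be told apart from anything else in which the strains differ. Values are probe set intensities on a linear scale, and log2 differences are on the scale log2(intensity + 10).

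TGF-beta proteins are secreted in a latent form, and once freed they bind a type II receptor that recruits and activates a type I receptor, which phosphorylates Smad proteins that move to the nucleus. BMPs signal through related receptors and their own Smads, and secreted proteins such as follistatin bind activins and some BMPs and keep them from their receptors. In the cornea the pathway is best known from wound healing, where TGF-beta turns stromal keratocytes into contractile, matrix-producing myofibroblasts.

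Markers of the corneal layers were bright on all arrays. The summed intensity of 7 epithelial markers lay between 104688 and 110497 in SJL, 105588 and 108590 in KS and 109960 and 112490 in B6. That of 7 stromal markers lay between 46180 and 48182 in SJL, 52576 and 58112 in KS and 51059 and 55764 in B6, and that of 5 endothelial markers between 10122 and 12594, 14820 and 16896, and 13154 and 16480 in the same strains. The array of KS replicate 3 stood apart in that all 5 retina markers with a probe set lay at 114 to 2108 on it, and at 12.0 or lower on the other 8 arrays. Beside each result on the 10 genes whose call changes without this array, the value without it is given. The correlation between arrays was 0.982 to 0.994 within a strain and 0.955 to 0.98 between strains. In punches of whole tissue, fewer cells of a type and less RNA per cell cannot be told apart.

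Upstream sequence from RefSeq is shown for the 3 genes that differed among the strains and had an entry in the promoter table, as the region in front of transcripts whose level differed. Each window holds the 250 bases before an annotated start on GRCm38.p6, the genome of C57BL/6J, and the sequences of SJL and KS were not used here. Capitals mark a TATA box (TATAAA), an E-box (CACGTG), a GC box (GGGCGG), the Smad element CAGAC and a GC-rich Smad element (GGCGCC), each searched on both strands.
Tgfb1, chr7:25686752-25687001, plus strand: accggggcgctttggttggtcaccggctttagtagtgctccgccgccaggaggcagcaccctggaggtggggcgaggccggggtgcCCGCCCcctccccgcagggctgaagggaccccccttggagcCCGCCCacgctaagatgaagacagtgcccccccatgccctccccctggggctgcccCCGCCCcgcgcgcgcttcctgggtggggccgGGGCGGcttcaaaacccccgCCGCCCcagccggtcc
Tgfb2, chr1:186705990-186706239, minus strand: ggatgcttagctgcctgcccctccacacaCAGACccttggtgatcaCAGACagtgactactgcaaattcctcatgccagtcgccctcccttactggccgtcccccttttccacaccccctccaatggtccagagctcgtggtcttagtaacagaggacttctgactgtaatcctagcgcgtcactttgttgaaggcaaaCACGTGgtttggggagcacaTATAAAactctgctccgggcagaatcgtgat
Fstl1, chr16:37776805-37777054, plus strand: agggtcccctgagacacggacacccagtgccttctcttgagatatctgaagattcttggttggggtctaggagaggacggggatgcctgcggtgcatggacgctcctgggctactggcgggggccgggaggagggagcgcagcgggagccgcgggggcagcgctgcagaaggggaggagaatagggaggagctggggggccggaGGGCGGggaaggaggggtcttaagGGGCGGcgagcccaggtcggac
The windows differ in make-up. That of Tgfb1 is 75.2% G or C with 5 GC boxes and no match to the other 4 motifs, and that of Fstl1 is 68.0% G or C with 2 GC boxes. That of Tgfb2 is 53.6% G or C, has no GC box, and holds a TATA box 31 bases and an E-box 51 bases before the start, with Smad elements at 221 and 204 bases before it. Among 32841 windows of the same length, whose median GC content was 52.4%, 12.4% held the TATA box, 6.02% the E-box, 32.7% the GC box, 42.2% the Smad element CAGAC and 9.59% the GC-rich one. A match is a run of letters and not a measured binding site.

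Of the 10 genes, 9 passed the filter on dim probe sets, and 5 of these 9 differed among the strains by limma's moderated F-test at an adjusted p under 0.05: Tgfb1, Tgfb2, Bmp7, Fst and Fstl1. Over all 10956 genes tested the share was 19.4%. The genes were chosen with earlier results of these data known, so the higher share is a description. SJL had the highest Bmp7 and Tgfb1 signal, KS the highest Tgfb2 signal and B6 the highest Fst signal. Fstl1 was lower in B6 than in SJL, and no difference was called for the receptors, Smad3 or Tgfb3. The count was 3 without SJL replicate 3, KS replicate 2 or KS replicate 3.

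**Figure D1:**
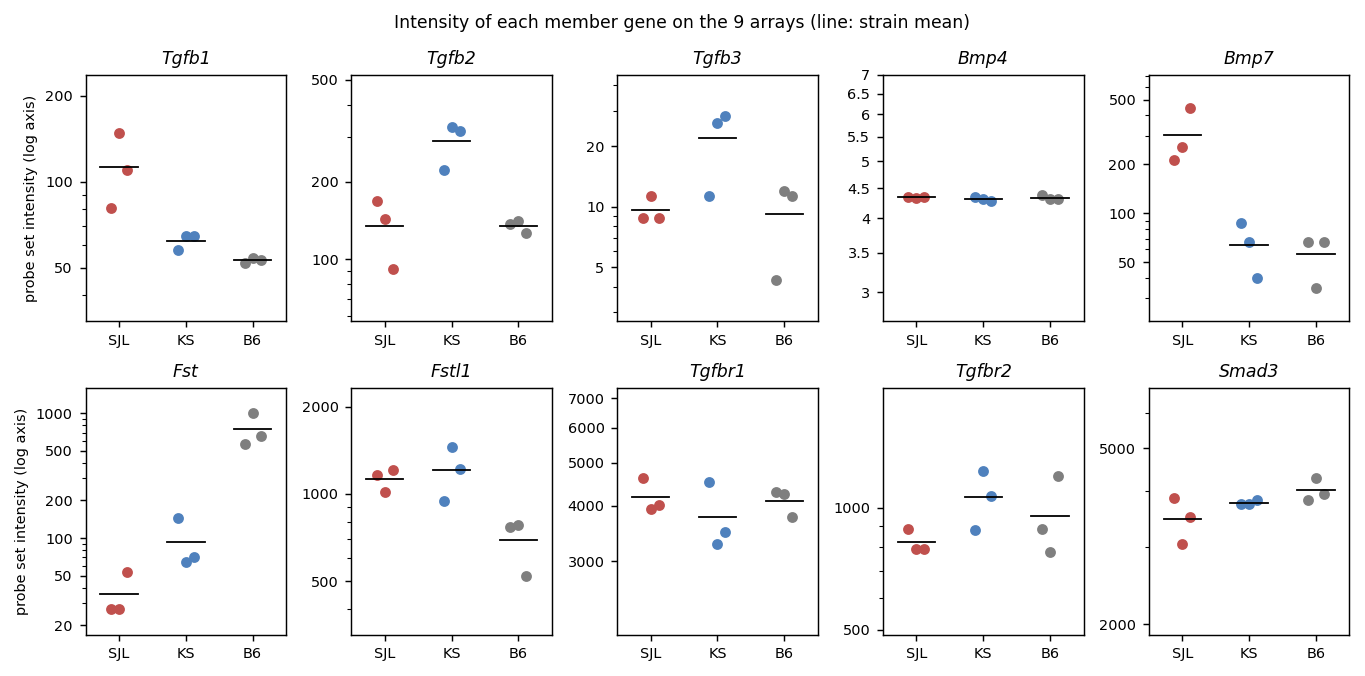
Probe set intensity (log axis, a separate range in each panel) of the 10 genes on each array, with SJL, KS and B6 from left to right, a point for each mouse and a line for the strain mean. The 3 SJL arrays lie highest for Bmp7 and Tgfb1, the 3 KS arrays highest for Tgfb2 and the 3 B6 arrays highest for Fst, while Bmp4 lies between 4.28 and 4.38 throughout.

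Bmp7, a BMP ligand that in mice is needed for eye development, was the ligand with the largest difference between strains. Its intensity was 214, 254 and 446 on the SJL arrays, against 86.6, 66.3 and 39.8 on the KS arrays and 66.6, 34.6 and 66.5 on the B6 arrays. All 3 SJL values lay above all 6 others, and KS and B6 overlapped. The mean was 305 ± 124 in SJL, 64.2 ± 23.4 in KS and 55.9 ± 18.5 in B6 (SD, n = 3 each), which is 4.75 times the KS mean and 5.45 times the B6 mean.

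The log2 difference of Bmp7 was 2.07 ± 0.35 (SE) for SJL against KS (limma adjusted p = 0.00449) and 2.23 ± 0.35 for SJL against B6 (limma adjusted p = 0.00292). Between KS and B6 it was 0.16 (limma adjusted p = 0.846), with a 95% interval of -0.63 to 0.95 that leaves room for a sizeable difference either way. A second probe set read 77.5, 173 and 179 in SJL, against 13.0, 18.8 and 9.53 in KS and 9.25, 7.90 and 12.7 in B6, and its log2 differences were 2.62 against KS and 2.87 against B6 (limma adjusted p = 0.000497 and 0.000284). The separation of SJL therefore appeared in both tested probe sets. The third probe set was not tested and lay at 4.96 to 6.12 in SJL, against 4.44 to 4.49 in KS and 4.39 to 4.46 in B6.

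Tgfb1, the TGF-beta form most tied to fibrosis and myofibroblast formation, was also highest in SJL, with a smaller difference. It read 80.8, 148 and 110 in SJL, against 57.6, 64.8 and 64.3 in KS and 51.9, 54.2 and 53.0 in B6. No strain overlapped another, and the SJL mice were the most spread, with a coefficient of variation of 29.7% in SJL, 6.41% in KS and 2.16% in B6.

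The mean of Tgfb1 was 113 ± 33.6 in SJL, 62.2 ± 3.99 in KS and 53.0 ± 1.15 in B6 (SD, n = 3 each). SJL was higher than B6 by 0.93 ± 0.18 on the log2 scale (SE, limma adjusted p = 0.00811) and higher than KS by 0.73 ± 0.18 (limma adjusted p = 0.0244). The call against KS was lost without SJL replicate 3 (limma adjusted p = 0.0729) and without KS replicate 1, 2 or 3 (0.0812, 0.0665 and 0.0675), as well as with no filter on dim probe sets (0.0839) and with only the 6 arrays of both strains (0.0664). KS and B6 did not differ by the test (0.20, limma adjusted p = 0.597, 95% interval -0.21 to 0.60). The only other Tgfb1 probe set lay at 4.31 to 4.38 on all 9 arrays and gives no check.

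Other markers that were higher in SJL stand beside the Bmp7 and Tgfb1 results. Of 5 leukocyte markers, 3 were tested and 1 was higher in SJL, the integrin Itgam at 73.9, 43.4 and 68.0 in SJL, against 25.9, 22.9 and 19.3 in KS and 22.1, 13.5 and 20.2 in B6. The summed level of that list was 696 to 760 in SJL, 588 to 858 in KS and 530 to 610 in B6. Of its other markers, Cd68 lay at 419 to 773 and Csf1r at 25.7 to 81.3 over the 9 arrays, neither with a call. Ptprc and Cd3e were dim on every array, at 4.05 to 5.37. Of 5 lens markers only Bfsp1 was tested, and it was higher in SJL (35.1, 102 and 80.5) than in KS (22, 24.8 and 25.1) and B6 (23.6, 22.1 and 25.1). The other 4, the crystallins Cryaa and Crygs among them, were too dim for the test, and the list summed to 53.0 to 120 in SJL, 39.5 to 42.4 in KS and 39.5 to 42.5 in B6. Of 7 epithelial markers Krt14, a basal cell keratin, was higher in SJL than in B6 (0.37, limma adjusted p = 0.0456). So was the limbal marker Krt19 (0.67, limma adjusted p = 0.0192), and neither was called against KS. Krt14 was not called by limma's F-test (adjusted p = 0.0743). Of its 2 other tested probe sets only 1 had the same sign in SJL minus B6, with a call. Krt13 and Krt4, of the same conjunctival and limbal list as Krt19, were lower in SJL than in B6 (-1.7 and -2.97, limma adjusted p = 3.61e-05 and 0.00169). Krt4 lay at 4.08 to 4.10 on the SJL arrays, at the dim end, so the size of its difference depends on the pseudocount. That list summed to 6337 to 8221 in SJL, 14112 to 15536 in KS and 13231 to 15522 in B6. The part of these cells in the Bmp7 and Tgfb1 results was not tested.

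Tgfb2, the TGF-beta form that is prominent in the fluid of the eye's anterior chamber, was highest in KS, the strain labelled with a thin cornea. It read 169, 144 and 91.7 in SJL, 222, 327 and 315 in KS, and 137, 141 and 127 in B6. Every KS value lay above every SJL and B6 value, and SJL and B6 overlapped.

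The mean of Tgfb2 was 135 ± 39.6 in SJL, 288 ± 57.3 in KS and 135 ± 7.45 in B6 (SD, n = 3 each). It was lower in SJL than in KS by a log2 difference of -1.06 ± 0.22 (SE, limma adjusted p = 0.0126) and higher in KS than in B6 by 1.02 ± 0.22 (limma adjusted p = 0.0319). SJL and B6 differed by -0.04, with a 95% interval of -0.54 to 0.46. The remaining 3 Tgfb2 probe sets, all tested, were dimmer and ran the same way, with SJL against KS at -1.10, -0.46 and -0.56 (limma adjusted p = 0.00611, 0.0434 and 0.0438). For KS against B6 they gave 0.86, 0.25 and 0.71, of which the middle one was not called (limma adjusted p = 0.0404, 0.337 and 0.0352). Probe sets of 1 gene on 1 array share their RNA and are not further replicates.

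The Tgfb2 calls were close to the threshold. SJL against KS was not called without KS replicate 2 (limma adjusted p = 0.0533), without KS replicate 3, the array with retina transcripts (0.0516), or with no filter (0.0560), though the log2 difference stayed at -0.96, -0.99 and -1.06. KS against B6 was not called without KS replicate 2 (0.131) or 3 (0.118), without B6 replicate 1, 2 or 3 (0.0883, 0.0727 and 0.0975) or with no filter (0.123). With the replicate numbers as a block it was not called either (limma adjusted p = 0.0656). Tgfb2 read 222 and 327 on KS replicates 1 and 2 and 315 on KS replicate 3. The part of the retina transcripts in the Tgfb2 result was not tested. Of 7 stromal markers 2 (Dcn and Aldh1a1) and of 5 endothelial markers 1 (Atp1b1) were lower in SJL than in KS, and 0 of either list were called in KS against B6; their part in the Tgfb2 result was not tested.

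Tgfb3 was dim. It read 8.79, 11.3 and 8.80 in SJL, 11.3, 25.9 and 28.3 in KS, and 4.31, 12.0 and 11.3 in B6, so that 2 KS arrays were above all others and KS replicate 1 was not. Its log2 difference was -0.65 for SJL against KS (limma adjusted p = 0.115, 95% interval -1.21 to -0.10) and 0.71 for KS against B6 (limma adjusted p = 0.153, 95% interval 0.16 to 1.27). Without KS replicate 3, the array with retina transcripts, these were -0.50 (limma adjusted p = 0.311) and 0.56 (limma adjusted p = 0.385), and without KS replicate 2 they were -0.54 and 0.60 (limma adjusted p = 0.296 and 0.43). Both were called without KS replicate 1, at -0.92 (limma adjusted p = 0.0222) and 0.98 (limma adjusted p = 0.0337), and no other setting called both. With the replicate numbers as a block, SJL against KS was called (limma adjusted p = 0.0444). The size of the Tgfb3 difference turns on which KS array is left out. Bmp4 lay at 4.28 to 4.38 on all 9 arrays, near the lowest intensity of the table, 3.39, so its level was not measurable with its probe set and it was not tested.

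Fst encodes follistatin, which binds activins tightly and some BMPs more weakly, and had the largest strain difference of the 10 genes. It read 26.9, 27.2 and 53.1 in SJL, 144, 64.0 and 70 in KS, and 565, 998 and 661 in B6. The strains formed 3 separate ranges, with B6 far above both others and SJL below KS.

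The mean of Fst was 35.7 ± 15 in SJL, 92.7 ± 44.7 in KS and 741 ± 227 in B6 (SD, n = 3 each), so the B6 mean was 20.8 times that of SJL and 8 times that of KS. SJL was lower than B6 by a log2 difference of -4.04 ± 0.34 (SE, limma adjusted p = 9.69e-05), and KS was lower than B6 by -2.91 ± 0.34 (limma adjusted p = 0.00141). Both calls held with any single array left out, with limma adjusted p at most 0.000737 for SJL and 0.00955 for KS. SJL against KS gave -1.13 ± 0.34 (limma adjusted p = 0.0600, 95% interval -1.92 to -0.35), which was not called although the arrays did not overlap. Without SJL replicate 3 it was called, at -1.39 (limma adjusted p = 0.0465). The second Fst probe set lay at 4.69 to 5.53 on all 9 arrays, so the differences of Fst rest on 1 probe set.

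A keratin of mucosal and conjunctival epithelium, Krt4, had the same order of strains as Fst, at 4.09, 4.08 and 4.10 in SJL, 11.9, 6.90 and 38.1 in KS, and 154, 56.8 and 112 in B6. Of the 5 conjunctival and limbal markers, 4 were tested. In SJL against B6, Krt4 and Krt13 were lower and Krt19 was higher, and in KS against B6 only Krt4 was called, lower. The summed level of the list was 6337 to 8221 in SJL, 14112 to 15536 in KS and 13231 to 15522 in B6, so KS and B6 overlapped, and the goblet cell mucin Muc5ac lay at 4.22 to 4.31 throughout. Their part in the Fst result was not tested.

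Fstl1, a secreted glycoprotein related to follistatin by sequence, was bright in all strains and lowest in B6. It read 1163, 1017 and 1208 in SJL, 945, 1454 and 1220 in KS, and 771, 782 and 522 in B6. SJL and KS overlapped, and all 6 of their arrays lay above the 3 of B6. SJL was higher than B6 by 0.72 ± 0.20 on the log2 scale (SE, limma adjusted p = 0.0418), while KS against B6 gave 0.80 ± 0.20 and was not called (limma adjusted p = 0.0573).

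The Fstl1 call was weak and rested on a near tie between its 2 probe sets, whose mean intensities were 1009 and 1006. By mean log2 value the other probe set stands for the gene, and no difference of Fstl1 was then called, so that 4 of 9 genes differed by the F-test and 3 of 9 between SJL and B6; this choice was examined after seeing the data. The call was also lost without any 1 of the SJL arrays, any 1 of the B6 arrays or KS replicate 3, with limma adjusted p between 0.0541 and 0.127. Without KS replicate 3, the array with retina transcripts, it was 0.0697. The call was lost as well with no filter (0.133), the 6 arrays of both strains (0.0595) or the replicate numbers as a block (0.0741). KS against B6 was called without KS replicate 1 (0.96, limma adjusted p = 0.0397), with the filter at the 70th percentile (0.0471), with an intensity trend in the variance (0.0418) and with the mean of both probe sets (0.61, limma adjusted p = 0.0195). The second Fstl1 probe set read 1020, 1167 and 1077 in SJL, 962, 1335 and 1024 in KS, and 754, 735 and 983 in B6. It gave 0.41 for SJL against B6 (limma adjusted p = 0.122) and 0.42 for KS against B6 (limma adjusted p = 0.189).

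**Figure D2:**
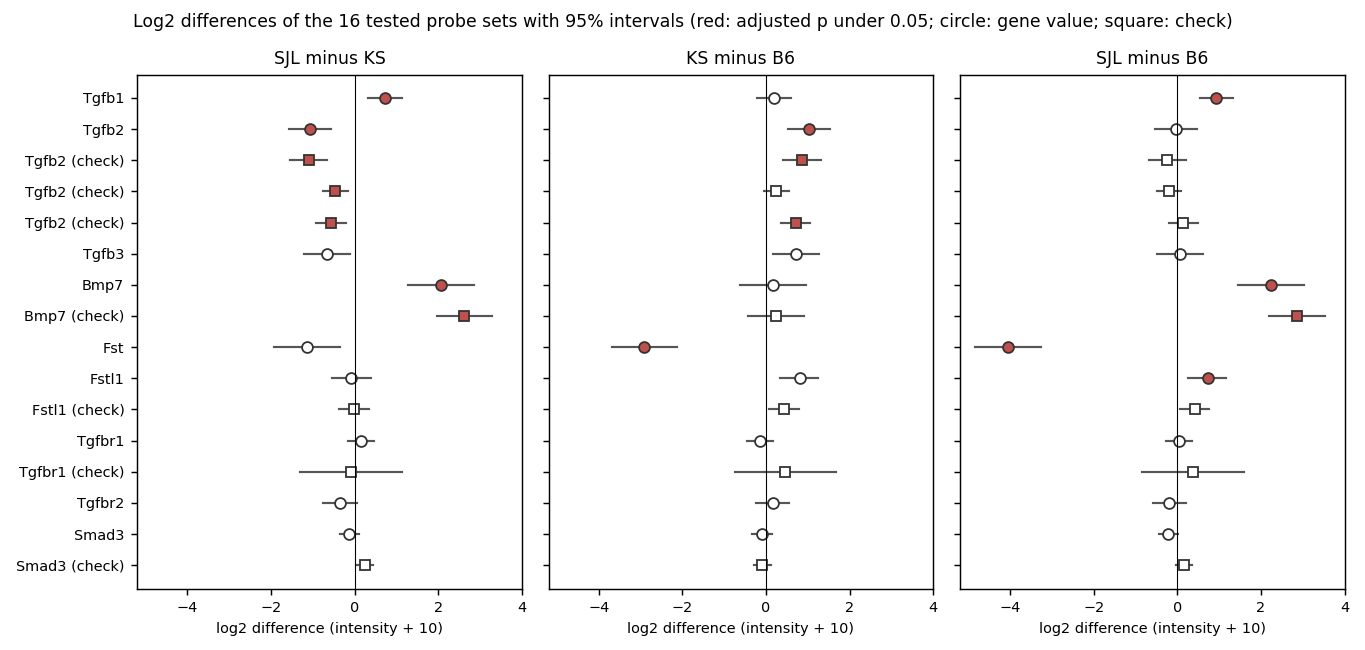
Log2 differences (intensity + 10) of the 16 tested probe sets in SJL minus KS, KS minus B6 and SJL minus B6, with 95% intervals from the limma model; circles are the probe sets that stand for the genes, squares the checks, and red marks an adjusted p under 0.05. The Bmp7 and Tgfb2 probe sets lie on 1 side of 0 in SJL minus KS, and Fst lies at -2.91 and -4.04 against B6.

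The receptors and Smad3 were bright, and none of the 3 contrasts was called for them. Tgfbr1, the type I receptor, read 4612, 3939 and 4021 in SJL, 4534, 3282 and 3503 in KS, and 4293, 4261 and 3785 in B6, with all strains overlapping. Its 95% intervals were -0.15 to 0.47 for SJL against KS, -0.45 to 0.17 for KS against B6 and -0.28 to 0.34 for SJL against B6, so a log2 difference of 1 lies outside all of them. A second Tgfbr1 probe set scattered within strains, at 906, 243 and 712 in SJL, 582, 530 and 621 in KS, and 517, 670 and 204 in B6. Its 95% intervals reached from -1.30 to 1.13, -0.75 to 1.68 and -0.84 to 1.59 in these contrasts, so it bounds little, and the third lay at 4.65 to 4.78 and was not tested.

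Tgfbr2, the type II receptor that binds TGF-beta first, read 887, 791 and 790 in SJL, 879, 1233 and 1068 in KS, and 887, 778 and 1194 in B6. Its log2 difference was -0.35 for SJL against KS (95% interval -0.75 to 0.05), 0.16 for KS against B6 (-0.24 to 0.56) and -0.19 for SJL against B6 (-0.59 to 0.21). Smad3, which carries the TGF-beta and activin signal to the nucleus, read 3856, 3033 and 3504 in SJL, 3736, 3736 and 3830 in KS, and 3827, 4281 and 3949 in B6. Its log2 difference was -0.13 for SJL against KS (95% interval -0.36 to 0.11), -0.09 for KS against B6 (-0.33 to 0.14) and -0.22 for SJL against B6 (-0.45 to 0.02), the last with a limma adjusted p of 0.201. The interval of this probe set leaves out differences beyond 0.45 in either direction in all 3 contrasts. A second and dim Smad3 probe set ran the other way in SJL against KS (0.24) without a call. The third Smad3 probe set lay at 4.33 to 4.37 and the remaining 2 of Tgfbr2 at 4.60 to 5.36, and none of these was tested.

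In SJL against KS, 3 of the 9 tested genes were called, where 14.9% of all tested genes were; 2 were higher (6.8% of all genes) and 1 lower (8.08%). For the KS to B6 contrast 2 of 9 were called, against 6.27% of all genes, 1 of them higher (3.4%) and 1 lower (2.87%). For the SJL to B6 contrast 4 of 9 were called, against 16.1%, 3 of them higher (8.39%) and 1 lower (7.68%). The median log2 difference of the 9 genes was -0.13, 0.16 and 0.03 in these contrasts, beside 0.02, 0.01 and 0.02 over all genes. The contrasts share arrays, so a strain that stands out appears in 2 of them. Leaving out KS replicate 3 left 1, 1 and 3 calls, and leaving out KS replicate 2 left 1, 1 and 4. For KS against B6 there was 1 call without any 1 of the B6 arrays and 4 calls without KS replicate 1. Of the 9 calls, 5 kept their side of the threshold under every alternative that tested the gene: Bmp7 in both contrasts of SJL, Fst in both contrasts with B6, and Tgfb1 between SJL and B6.

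**Figure D3:**
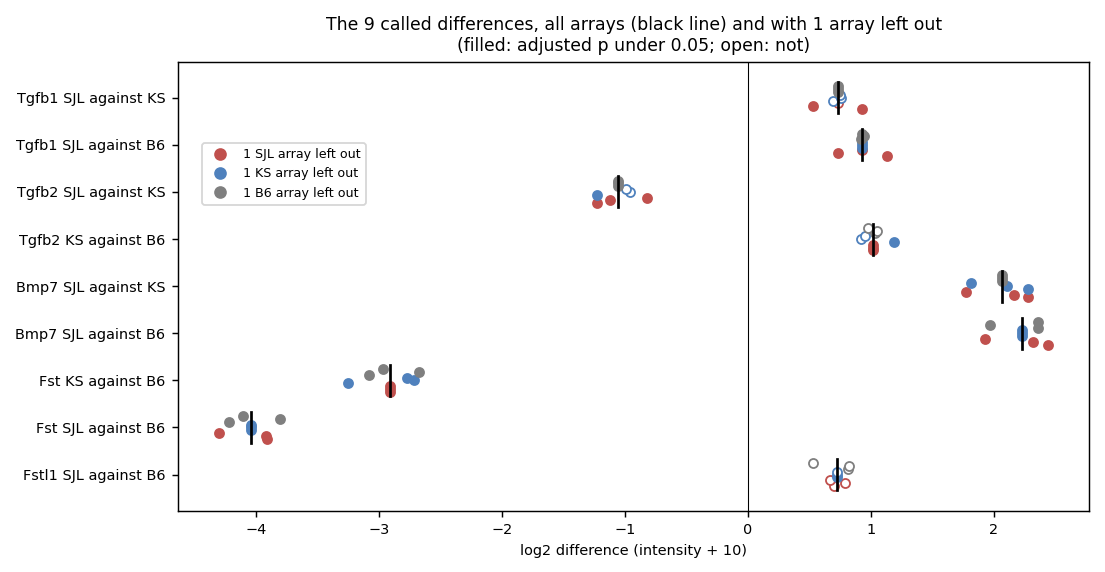
The 9 called log2 differences (intensity + 10) with all arrays (black line) and with 1 array of SJL, KS or B6 left out (red, blue and grey points; filled where the adjusted p stayed under 0.05). Fst and Bmp7 stay filled throughout, with Fst in SJL against B6 between -4.30 and -3.81, while Fstl1, Tgfb2 and Tgfb1 in SJL against KS have open points.

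The rest of the pathway was covered by 6 lists of 87 symbols, in which Ctgf is an older symbol of Ccn2; 78 had a probe set and 53 were tested. In SJL against KS 4 were higher and 5 lower, in KS against B6 3 were higher and 2 lower, and in SJL against B6 6 were higher and 4 lower. The higher genes in both contrasts of SJL include Chrdl2, which passed the filter through the SJL arrays alone and whose test is not used below. With Chrdl2 counted, the calls are 9, 5 and 10 of 53 genes, near the shares of 14.9%, 6.27% and 16.1% over all genes, and are no result about the pathway. The median log2 differences of the 53 genes were -0.06, 0.04 and -0.01. Leaving out KS replicate 3 left 9, 3 and 8 calls. In KS against B6 they numbered 2 without KS replicate 1 or any 1 of the B6 arrays, 1 without KS replicate 2 and 1 with no filter. In SJL against B6 they numbered 6 without SJL replicate 3, without B6 replicate 1 or with no filter.

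Most other ligands of the family were dim. Of 10 with a probe set only Inhbb, an activin subunit, and Bmp6 were tested. Bmp6 was lower in KS, at 12.2 ± 5.69, than in B6, at 42.5 ± 13.1 (log2 difference -1.24, limma adjusted p = 0.0263, n = 3 each), a call lost with no filter and without KS replicate 1 or 2 or B6 replicate 2 or 3. SJL lay between, at 30.3 ± 9.28, and was not called against B6 (-0.37) or KS (0.87, limma adjusted p = 0.0540). Against KS it was called in 7 of the alternatives, leaving out KS replicate 3 among them. Inhbb had a mean of 72.3 ± 3.93 in SJL, 48.7 ± 8.34 in KS and 52.3 ± 13.2 in B6 without a call, and was called in both contrasts of SJL without B6 replicate 2.

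Among 9 tested genes that store or free latent ligands, only Thbs1 was called. Thrombospondin 1, which can activate latent TGF-beta, was lower in SJL than in KS (-1.24, limma adjusted p = 0.00850) and than in B6 (-0.93, limma adjusted p = 0.0299). The call against B6 was lost with no filter and without SJL replicate 3, KS replicate 1 or B6 replicate 1 or 2. Itgav, an integrin chain that binds latent TGF-beta, and Furin, a protease that processes its precursor, were the brightest of this list, and they gave -0.14 and 0.03 in KS against B6, without a call.

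Among the antagonists 3 genes beside Chrdl2 were called in at least 1 contrast. Chrdl2, a chordin-like BMP antagonist, read 79.2, 28.8 and 35.8 in SJL, against 4.28, 4.26 and 4.22 in KS and 4.32, 4.25 and 4.25 in B6. Only the SJL arrays were above the dim end, and the probe set passed the filter through them alone, so its test is not used and its log2 difference, which the pseudocount sets, is not given. Bmper, a BMP-binding regulator, was lower in SJL, at 978 ± 70.5, than in KS, at 1948 ± 426 (-0.96, limma adjusted p = 0.00661), with B6 at 1488 ± 210. Bambi, a decoy receptor, was lower in SJL than in B6 (-1.59, limma adjusted p = 0.0364), a call that, with 1 array left out, held only without B6 replicate 2. Htra1, a secreted protease reported to curb TGF-beta family signalling, was higher in KS than in B6 (0.82, limma adjusted p = 0.0417) and in SJL than in B6 (0.65, limma adjusted p = 0.0490), and with 1 array left out the KS call held only without SJL replicate 1 or 2 and the SJL call only without SJL replicate 1. Chrdl1, the chordin-like gene mutated in human X-linked megalocornea, lay between 5.82 and 6.40 on all arrays and was not tested.

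Of 7 tested receptors 1 was called. Acvr1, a type I receptor for BMPs, read 303, 288 and 223 in SJL, against 502, 494 and 459 in KS and 452, 436 and 520 in B6. SJL was below all 6 other arrays, with log2 differences of -0.83 against KS (limma adjusted p = 0.00301) and -0.78 against B6 (limma adjusted p = 0.00393). Both calls held with every other filter, normalization, pseudocount, variance trend and block setting and with any 1 array left out. A second Acvr1 probe set had the same sign without a call. Markers of other cell types were also lower in SJL. Of the 3 nerve and Schwann cell markers with a probe set 2 were tested, and Ngfr, a neurotrophin receptor, read 128, 134 and 173 in SJL, against 870, 540 and 566 in KS and 604, 533 and 646 in B6. The other, Mbp, was not called, Sox10 lay at 4.48 to 4.54, and the list summed to 3750 to 4361 in SJL, 4453 to 5352 in KS and 4382 to 4727 in B6. The endothelial marker Atp1b1, the only 1 of 5 in its list that was called, was lower in SJL than in KS (-1.08, limma adjusted p = 0.00169) and than in B6 (-0.84, limma adjusted p = 0.00585). The part of these cells in the Acvr1 result was not tested. In KS against B6 the brightest receptors, Tgfbr3 and Bmpr2, gave 0.14 and 0.04.

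Among 13 tested Smads and regulators Map3k7 and Smurf1 were called. Map3k7, the kinase TAK1 that carries TGF-beta signals outside the Smads, read 3152, 3046 and 3086 in SJL, 1518, 1566 and 1389 in KS, and 2281, 2228 and 2508 in B6. The 3 strains did not overlap, and SJL was higher than KS (1.05, limma adjusted p = 8.42e-05) and than B6 (0.40, limma adjusted p = 0.0136), while KS was lower than B6 (-0.65, limma adjusted p = 0.00275). These 3 calls held under every alternative run for this gene, which did not include its other probe sets or only the 6 arrays compared. Of 4 other tested probe sets of Map3k7, 3 had the same sign in each contrast. The number called with that sign was 3 for SJL minus KS, but 1 for KS minus B6 and 2 for SJL minus B6. Smurf1, a ubiquitin ligase for BMP Smads, was lower in SJL than in KS (-0.30, limma adjusted p = 0.0489), and the call was lost in all 9 fits with 1 array left out.

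Target genes of the pathway did not move in 1 direction. Of 14 tested, 2 were higher and 1 lower in SJL than in KS, 2 higher and 0 lower in KS than in B6, and 3 higher and 1 lower in SJL than in B6. Over all genes tested the shares higher and lower were 6.8% and 8.08%, 3.4% and 2.87%, and 8.39% and 7.68% in these contrasts. Fn1, fibronectin, was higher in SJL than in KS (1.14, limma adjusted p = 0.00044) and in B6 (0.90, limma adjusted p = 0.00158), with KS against B6 at -0.24. Pmepa1, a TGF-beta-induced inhibitor of Smad signalling, had a mean of 1529 ± 224 in SJL, 1280 ± 224 in KS and 754 ± 67.9 in B6. It was higher in SJL than in B6 (1.00, limma adjusted p = 0.00338) and in KS than in B6 (0.74, limma adjusted p = 0.0318).

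Tsc22d1, a TGF-beta-stimulated gene, was lower in SJL, at 3950 ± 80.9, than in KS, at 5822 ± 569 (-0.55, limma adjusted p = 0.00423), and than in B6, at 5640 ± 235 (-0.51, limma adjusted p = 0.00604). Klf10, an early TGF-beta response gene, was higher in SJL than in KS (0.45, limma adjusted p = 0.0201). Postn, the matrix protein periostin, was higher in KS than in B6 (1.00, limma adjusted p = 0.0296) and in SJL than in B6 (0.86, limma adjusted p = 0.0254). Of these, Klf10 lost its call without SJL replicate 2 or 3 or KS replicate 2 or 3, and the KS call of Pmepa1 was lost without KS replicate 2 or 3, without any 1 of the B6 arrays and with no filter. Postn lost its KS call without any 1 of the KS arrays, its SJL call without SJL replicate 2 or 3, and both without B6 replicate 1 or 2 or with no filter. The BMP targets Id1 and Id3 were not called, at -0.47 and -0.26 for SJL minus KS, 0.33 and -0.03 for KS minus B6, and -0.14 and -0.29 for SJL minus B6. The highest Id1 value, 1046, was on KS replicate 3, without which Id1 gave -0.26 for SJL minus KS and 0.12 for KS minus B6.

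**Figure D4:**
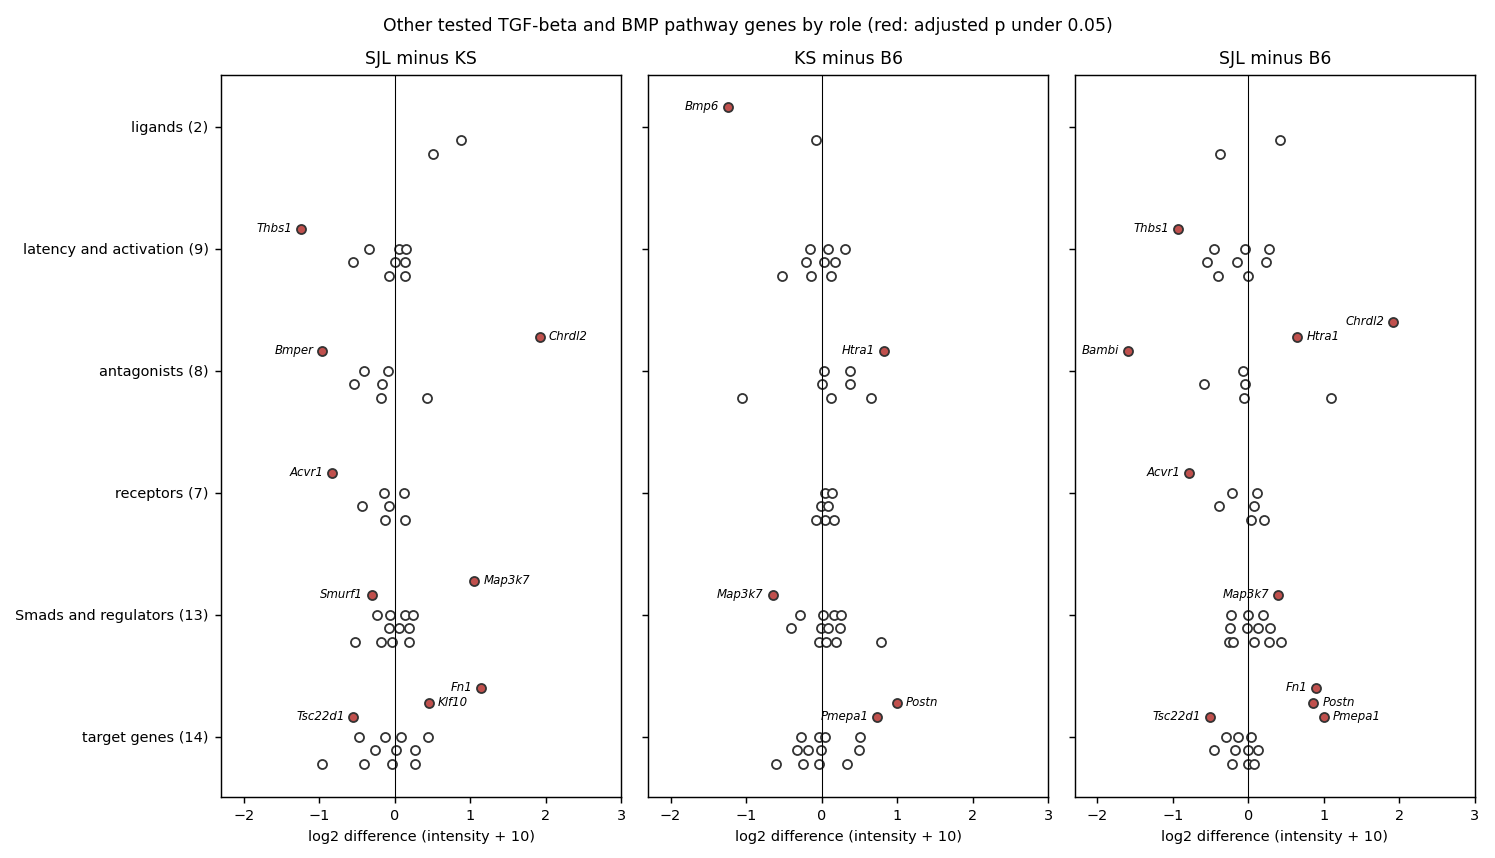
Log2 differences (intensity + 10) of the 53 other tested pathway genes in SJL minus KS, KS minus B6 and SJL minus B6, in rows by role with the number tested in brackets; red and named where the adjusted p was under 0.05. Called targets lie on both sides of 0 in SJL minus KS and SJL minus B6, and above 0 in KS minus B6. The place of Chrdl2, measured above the dim end in SJL alone, is set by the pseudocount.

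The genes whose pattern over the 9 arrays was most like that of each called gene were found by the Pearson correlation of log2 values, given as a description. Klc3 (r = 0.982) and Tpmt (0.980) were closest to Tgfb1, Bet1 (0.954) and Tmem176b (0.953) to Tgfb2, and Clca4a (0.977) and Tmem25 (0.975) to Bmp7. Closest to Fst were Spty2d1 (0.979) and Noct (0.977), a gene with a daily rhythm, which read 80.1 ± 2.28 in SJL, 107 ± 1.28 in KS and 176 ± 2.75 in B6. For Fstl1 they were Tbc1d17 (0.977) and Sod1 (0.975). With 3 strains of 3 mice, such a correlation mostly restates the strain means.

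The 10 genes lie on 9 chromosomes, since Tgfbr2 and Smad3 share chromosome 9. Among the 10 tested genes nearest to each called gene in RefSeq order, 5 on each side, 4 differed among the strains by limma's F-test around Tgfb2, 4 around Bmp7, 3 around Fst, 2 around Fstl1 and 0 around Tgfb1, where the share over all genes was 19.4%. The 4 around Bmp7 include Pmepa1, the target gene described above, together with Fam210b, Rae1 and Zbp1. Those around Tgfb2 were Bpnt1, Lyplal1, Gpatch2 and Cenpf.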

How the data were processed

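RNA was labelled with biotin for Affymetrix arrays, per the labels' protocols. The deposited intensities are linear, 1 per probe set, with upper quartiles of 380 to 398 over the arrays; their summary and scaling by the authors was not given in the sources used here. Intensities ran from 3.39 to 37501, and 3 arrays per strain limit the precision. Of 45037 probe sets without the 64 controls, those whose mean log2(intensity + 10) lay below the median (intensity of about 8.01) were left out, which left 22519. A mean per strain was fitted with limma 3.58.1 in R 4.3.3 (6 residual degrees of freedom, 8.41 after moderation), two-sided, with Benjamini-Hochberg adjustment over all probe sets tested; called means an adjusted p under 0.05. With 3 arrays in each strain the smallest p of an exact permutation test is 0.1. The limma p-values set a strain difference against the spread among arrays within strains, each array from 1 mouse. The fit was tested on simulated data.

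Groups and replicate numbers came from the sample titles. Genes and lists were chosen with earlier results of these data known. All 10 genes were named; from each list of other pathway genes, up to 3 called per contrast, or the 2 brightest where none was, with Fn1, Id1, Id3 and Chrdl1 always named. Marker lists covered 11 cell types. The filter was also dropped or raised to the 70th percentile, and the other settings were median centring, quantile normalization, pseudocounts of 1 and 50, a variance trend, the replicate block, only the 6 arrays compared, other probe sets or their mean, and each array left out; those for other pathway genes, and the choice of probe set by mean log2 value, were added after seeing the data. The alternatives for single other pathway genes did not include only the 6 arrays compared, other probe sets or their mean. Symbols came from the platform annotation, and sequences and gene order from RefSeq (GRCm38.p6).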

Additional observations from a re-analysis of the deposited data

How the results depend on the processing

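Of the 9 differences called for the 10 genes, 5 kept their call under every alternative that tested the gene, and the results give the adjusted p of the other 4. With the filter at the 70th percentile only 4 of the genes were tested, so 1 was called by the F-test, 0 between SJL and KS (limma, also 0 at an unadjusted p under 0.05), 1 between KS and B6 and 1 between SJL and B6. With no filter 2 were called by the F-test, 1 between SJL and KS and 1 between KS and B6. The replicate numbers of the titles were not taken as pairs in the main fit. Deviations from the strain means correlated above 0.1 in 3 of 9 same-numbered pairs of arrays (range -0.266 to 0.263). Among differently numbered pairs they did so in 4 of 18 (range -0.357 to 0.423). With so few pairs, these correlations cannot decide whether the numbers pair the arrays. With the replicate block 1 gene was called between KS and B6, 4 between SJL and KS and 3 between SJL and B6; Tgfb2 between KS and B6 (limma adjusted p = 0.0656) and Fstl1 between SJL and B6 (0.0741) were then not called, and Tgfb3 between SJL and KS was (0.0444). Leaving out 1 array at a time gave 3 to 6 genes by the F-test, 1 to 3 between SJL and KS and 1 to 4 between KS and B6. Over all probe sets, the filter at the 70th percentile, which tests fewer of them, left 2659 of 4374 calls by the F-test, 2101 of 3489 between SJL and KS, 742 of 1286 between KS and B6 and 2156 of 3605 between SJL and B6. KS against B6 had 838 calls with no filter and 748 to 1449 with 1 array left out.

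Signs changed in 9 differences of these genes, none of them called. Another probe set gave 0.14 for Tgfb2 in SJL against B6, -0.09 and 0.46 for Tgfbr1 in SJL minus KS and KS minus B6, and 0.24 and 0.15 for Smad3 in SJL minus KS and SJL minus B6. The mean of all probe sets gave 0.11 for Tgfbr1 in KS minus B6 and 0.04 for Smad3 in SJL minus KS. With 1 array left out, SJL minus B6 ran from -0.21 to 0.20 for Tgfb2, -0.14 to 0.17 for Tgfb3 and -0.05 to 0.07 for Tgfbr1, KS minus B6 from -0.10 to 0.42 for Bmp7, and SJL minus KS from -0.24 to 0.07 for Fstl1. Signs also changed with 1 array left out for named pathway genes that were not called in that contrast. KS minus B6 ran from -0.00 to 0.12 for Acvr1, -0.03 to 0.12 for Bmpr2, -0.02 to 0.06 for Furin, -0.07 to 0.04 for Id3, -0.22 to 0.08 for Inhbb and -0.04 to 0.08 for Tsc22d1, and was 0.00 or -0.00 throughout for Chrdl2. SJL minus KS ran from -0.05 to 0.03 for Itgav (0.02 with median centring), -0.25 to 0.11 for Postn and -0.20 to 0.09 for Tgfbr3. SJL minus B6 ran from -0.34 to 0.03 for Id1 and -0.06 to 0.23 for Tgfbr3. The cause of these changes was not tested. Without detection calls, a level at the dim end is an upper bound.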
